A study of Mus musculus with 14 samples.

Results

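The 8 genes described here encode proteins of the red cell membrane and of the protein mesh beneath it: Sptb, Ank1, Epb42, Epb41, Slc4a1, Rhag, Rhd and Kel. They were taken by symbol from the read count table, and all 8 of the 22116 named genes were found and passed the filter on low counts. RNA of whole spleens was sequenced in 14 wild-type female BALB/c mice aged 6 to 8 weeks, with 1 library a mouse. Imiquimod, an agonist of Toll-like receptor 7 that causes psoriasis-like skin inflammation, had been applied daily for 5 days as a 5% cream, to the back of 4 mice (imiquimod-dorsal) or to the ear of 4 others (imiquimod-ear). In 3 further mice (IL-23-ear) the ear skin received 4 injections, over 7 days, of 1 µg of recombinant mouse IL-23, which maintains T cells that make IL-17. The 3 control mice had petrolatum, the vehicle, on back and ears; the series' design text calls them untreated. No group here received an injection without IL-23, so the injection and the cytokine cannot be told apart. The design text calls the mice biological replicates, and the labels place all libraries in 1 batch.

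A mature red cell has no nucleus, and it keeps its shape through a mesh of spectrin tied to the membrane. Spectrin tetramers are joined at nodes of short actin filaments, where protein 4.1 strengthens the contact. Ankyrin and protein 4.2 fasten the mesh to band 3, the anion exchanger, and a further complex around the Rh proteins sits at the same anchor. Defects of these proteins are known causes of inherited haemolytic anaemias in people and mice. The messages are made in erythroblasts, the nucleated precursors, and the red pulp of the mouse spleen can house erythroblasts into adult life.

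Erythroid genes are known to be controlled by Gata1, which binds GATA letters, and by Klf1, which binds CC-rich letters, so the promoter windows of the members were searched for both. RefSeq windows of 300 bases, from 250 before to 50 after the annotated start, were at hand for 6 members in 8 windows, of which Epb41 had 3; Ank1 and Slc4a1 had none. The table is on build GRCm38.p6, and each of the 8 windows matched GRCm39 exactly 1 time, at the positions given. The members were set beside the 14595 windows of 300 bases whose genes passed the filter on low counts. AGATAA or TGATAA, read on both strands, stood in 4 of 8 windows, against 11.0% of those 14595. CCNCNCCC stood in 4 of 8 windows, against 66.3%. CTG followed, after 9 bases of any kind, by GATA stood in 4 of 8, against 1.83%, and can share its last letters with an AGATAA or TGATAA match. The E-box CANNTG stood in 6 of 8, against 65.1%. These matches describe the letters of the windows, and binding was not measured.

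Shown are the 4 windows with a GATA match (Kel, Rhag, Rhd and Epb42) and, for contrast, that of Sptb, which has CC-rich matches and no AGATAA or TGATAA. Capitals mark AGATAA or TGATAA, and CCNCNCCC, on either strand; overlapping matches run together. On GRCm39 the windows lie at chr6:41681210-41681509 for Kel (minus strand), chr17:41121790-41122089 for Rhag (plus strand), chr4:134591597-134591896 for Rhd (plus strand), chr2:120867309-120867608 for Epb42 (minus strand) and chr12:76757272-76757571 for Sptb (minus strand). Each is written 5′ to 3′ on the strand of its gene.
Kel: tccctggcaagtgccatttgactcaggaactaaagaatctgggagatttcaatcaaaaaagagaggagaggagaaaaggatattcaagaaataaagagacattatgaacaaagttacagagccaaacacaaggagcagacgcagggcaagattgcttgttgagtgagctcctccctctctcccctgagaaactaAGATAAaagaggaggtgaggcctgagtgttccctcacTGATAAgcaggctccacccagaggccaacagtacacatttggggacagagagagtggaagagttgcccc
Rhag: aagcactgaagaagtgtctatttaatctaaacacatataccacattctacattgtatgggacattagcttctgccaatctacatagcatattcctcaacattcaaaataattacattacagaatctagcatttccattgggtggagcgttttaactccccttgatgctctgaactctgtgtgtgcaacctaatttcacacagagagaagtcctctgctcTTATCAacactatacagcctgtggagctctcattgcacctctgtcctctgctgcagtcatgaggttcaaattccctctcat
Rhd: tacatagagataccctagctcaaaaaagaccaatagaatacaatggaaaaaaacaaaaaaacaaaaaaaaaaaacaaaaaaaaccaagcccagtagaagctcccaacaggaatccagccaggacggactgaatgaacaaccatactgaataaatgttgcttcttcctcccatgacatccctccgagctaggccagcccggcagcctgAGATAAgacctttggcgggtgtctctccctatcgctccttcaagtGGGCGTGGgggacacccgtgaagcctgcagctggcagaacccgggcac
Epb42: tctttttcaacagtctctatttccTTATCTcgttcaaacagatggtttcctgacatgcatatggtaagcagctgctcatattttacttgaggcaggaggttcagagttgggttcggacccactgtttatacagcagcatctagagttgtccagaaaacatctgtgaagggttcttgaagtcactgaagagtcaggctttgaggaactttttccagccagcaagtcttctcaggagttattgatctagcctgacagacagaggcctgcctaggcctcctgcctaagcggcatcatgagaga
Sptb: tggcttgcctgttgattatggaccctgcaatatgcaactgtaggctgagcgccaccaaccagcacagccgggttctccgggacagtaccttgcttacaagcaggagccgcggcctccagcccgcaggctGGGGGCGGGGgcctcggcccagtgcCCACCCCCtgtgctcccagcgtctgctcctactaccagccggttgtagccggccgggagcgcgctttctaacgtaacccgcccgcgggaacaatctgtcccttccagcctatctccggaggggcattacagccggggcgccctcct

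In Kel a match to AGATAA began 56 bases and a match to TGATAA 19 bases before the RefSeq start. The match in Rhag began 31 bases and that in Rhd 43 bases before it, while that of Epb42 lay farther out, at 226 bases. In Sptb the CC-rich matches began 121, 119 and 96 bases before the start.

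Library totals over named genes ran from 28354674 to 40289411 counts. Levels are given as CPM, read counts scaled to library size. The 3 counts that a 0 allows equal 0.0745 to 0.1058 CPM, which reflects counting error alone; no member was at 0 in any library. The scaling uses TMM, which adjusts library sizes for composition. Levels of different genes are compared as CPM per kb of annotated exon, save where CPM is named. The exons of all annotated transcripts are pooled for this, so a gene whose transcripts are shorter than the pool reads low. A gene is called changed where the adjusted p of edgeR's quasi-likelihood test, fitted over 15159 genes in all 14 libraries, is under 0.05.

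The first comparison set imiquimod on the back against vehicle. All 8 members rose in the imiquimod-dorsal spleens, 7 of them by 4.08 to 4.48 on the log2 scale and Epb41 by 1.92. In every case the lowest of the 4 imiquimod-dorsal libraries lay above the highest of the 3 controls. The same held for 33.0% of all genes tested, and 32.3% of them were called higher, 59.8% in either direction. The median log2 fold change was 4.23 over the members and 0 over all genes. Together the members took 0.579% to 0.905% of the counts of an imiquimod-dorsal library, against 0.0594% to 0.0623% of those of a control. In bulk spleen, more erythroblasts and more RNA per erythroblast cannot be told apart.

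Sptb (ENSMUSG00000021061; chromosome 12, 76627247 to 76757321, minus strand; here and below GRCm39) encodes beta-spectrin, a building block of the mesh. It stood at 1013, 1393, 967 and 921 CPM in imiquimod-dorsal 2, 3, 4 and 5, against 38.0, 49.6 and 60.4 CPM in controls 2, 4 and 5. The means were 1074 ± 217 CPM (SD, n = 4) and 49.3 ± 11.2 CPM (SD, n = 3), and the rise on the log2 scale was 4.44 ± 0.74 (SE; adjusted p = 0.000314). Ank1 (ENSMUSG00000031543; chromosome 8, 23464860 to 23640513, plus strand) encodes ankyrin-1, the link from spectrin to band 3. Its levels were 644, 877, 574 and 533 CPM in imiquimod-dorsal 2, 3, 4 and 5, against 28.3, 26.5 and 50.7 CPM in controls 2, 4 and 5. They rose by 4.22 ± 0.72 (adjusted p = 0.000354). For both genes the lowest treated library was more than 10-fold above the highest control.

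Slc4a1 (ENSMUSG00000006574; chromosome 11, 102239650 to 102257029, minus strand) is the gene of band 3. Per kb of exon it had the highest mean of the members in each group. As CPM, the mean of Epb41 was higher in the control and IL-23-ear groups. Slc4a1 reached 3784, 5562, 3540 and 3133 CPM in imiquimod-dorsal 2, 3, 4 and 5, against 198.9, 189 and 149.6 CPM in controls 2, 4 and 5. The means of 4005 ± 1072 CPM (SD, n = 4) and 179 ± 26.1 CPM (SD, n = 3) gave a log2 fold change of 4.48 ± 1.08 (adjusted p = 0.00365), the largest of the 8. Epb42 (ENSMUSG00000023216; chromosome 2, 120848372 to 120867553, minus strand) encodes protein 4.2, a relative of transglutaminases that has lost the enzyme activity and binds band 3. Its values were 233.8, 365, 232.7 and 196 CPM in imiquimod-dorsal 2, 3, 4 and 5, against 13.3, 14.9 and 10.9 CPM in controls 2, 4 and 5. The log2 fold change was 4.30 ± 0.97 (adjusted p = 0.0025). These 2 genes had the widest errors of the members. They were also the lowest relative to control in IL-23-ear 3, a library that shares the fit. In the imiquimod-ear group they spread most from the lowest to the highest library, 10.45-fold for Slc4a1 and 12.5-fold for Epb42. The source of the wide errors was not tested.

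Epb41 (ENSMUSG00000028906; chromosome 4, 131650724 to 131802632, minus strand) encodes protein 4.1, which is known to be made in many tissues besides red cells. It stood at 716, 1088, 732 and 589 CPM in imiquimod-dorsal 2, 3, 4 and 5, against 235, 199 and 186 CPM in controls 2, 4 and 5. Its rise of 1.92 ± 0.27 was the smallest of the members and had the smallest adjusted p (6.25e-05). Per kb of exon, Epb41 held 12.0 ± 1.47 CPM in controls (SD, n = 3), the third highest member after Slc4a1 at 36.6 ± 5.34 and Rhd at 15.7 ± 4.95; Rhd and Rhag (10.5 ± 4.45) did not differ from it beyond their spread. In imiquimod-dorsal libraries it held 45.4 ± 12.5 CPM per kb (SD, n = 4) and was the lowest, though Epb42 at 47.4 ± 13.7 and Ank1 at 48.6 ± 11.4 did not differ from it beyond their spread. As a difference of means, imiquimod-dorsal minus control, Epb41 gained 33.4 CPM per kb, which is also the smallest gain of the 8 on this scale. Its pooled exons, 17.2 kb, are the longest of the members. Not divided by length, Epb41 gained 574 CPM, between the 244 CPM of Epb42, the smallest such gain, and the 3826 CPM of Slc4a1, the largest. Slc4a1 gained the most, 782 CPM per kb.

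Rhag (ENSMUSG00000023926; chromosome 17, 41122017 to 41151645, plus strand) encodes the Rh-associated glycoprotein, a membrane channel for ammonia on which the Rh proteins depend to reach the surface. Its levels were 384, 552, 417 and 378 CPM in imiquimod-dorsal 2, 3, 4 and 5, against 18.2, 18.7 and 36.5 CPM in controls 2, 4 and 5, which is a rise of 4.14 ± 0.69 (adjusted p = 0.000318). Rhd (ENSMUSG00000028825; chromosome 4, 134591845 to 134623487, plus strand) is the Rh blood group gene of the mouse, which has 1 where people have RHD and RHCE. It stood at 489, 620.3, 483 and 409 CPM in imiquimod-dorsal 2, 3, 4 and 5, against 19.1, 24.9 and 35.6 CPM in controls 2, 4 and 5. It rose by 4.24 ± 0.75 (adjusted p = 0.000463). Control 5 was the highest control for both Rh genes, at 36.5 and 35.6 CPM, and remained far under the lowest treated library.

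Kel (ENSMUSG00000029866; chromosome 6, 41663264 to 41681273, minus strand) encodes the Kell protein, a surface metalloprotease that is bound to the Xk protein. Its values were 251, 382, 282 and 256 CPM in imiquimod-dorsal 2, 3, 4 and 5, against 15.8, 15.9 and 20.02 CPM in controls 2, 4 and 5. The log2 fold change was 4.08 ± 0.74 (adjusted p = 0.000578). Per kb of exon the order in imiquimod-dorsal spleens was Slc4a1 at 819, Rhd at 296.5, Rhag at 185, Kel at 106 and Sptb at 88.3 CPM, followed by Ank1, Epb42 and Epb41. Kel (SD 21.9) and Sptb (SD 17.8) are neighbours that did not differ beyond their spread. Imiquimod-dorsal 3 was the highest of its group for 8 of 8 members, at 1.35 to 1.65 times the mean of the other 3 libraries.

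**Figure D1:**
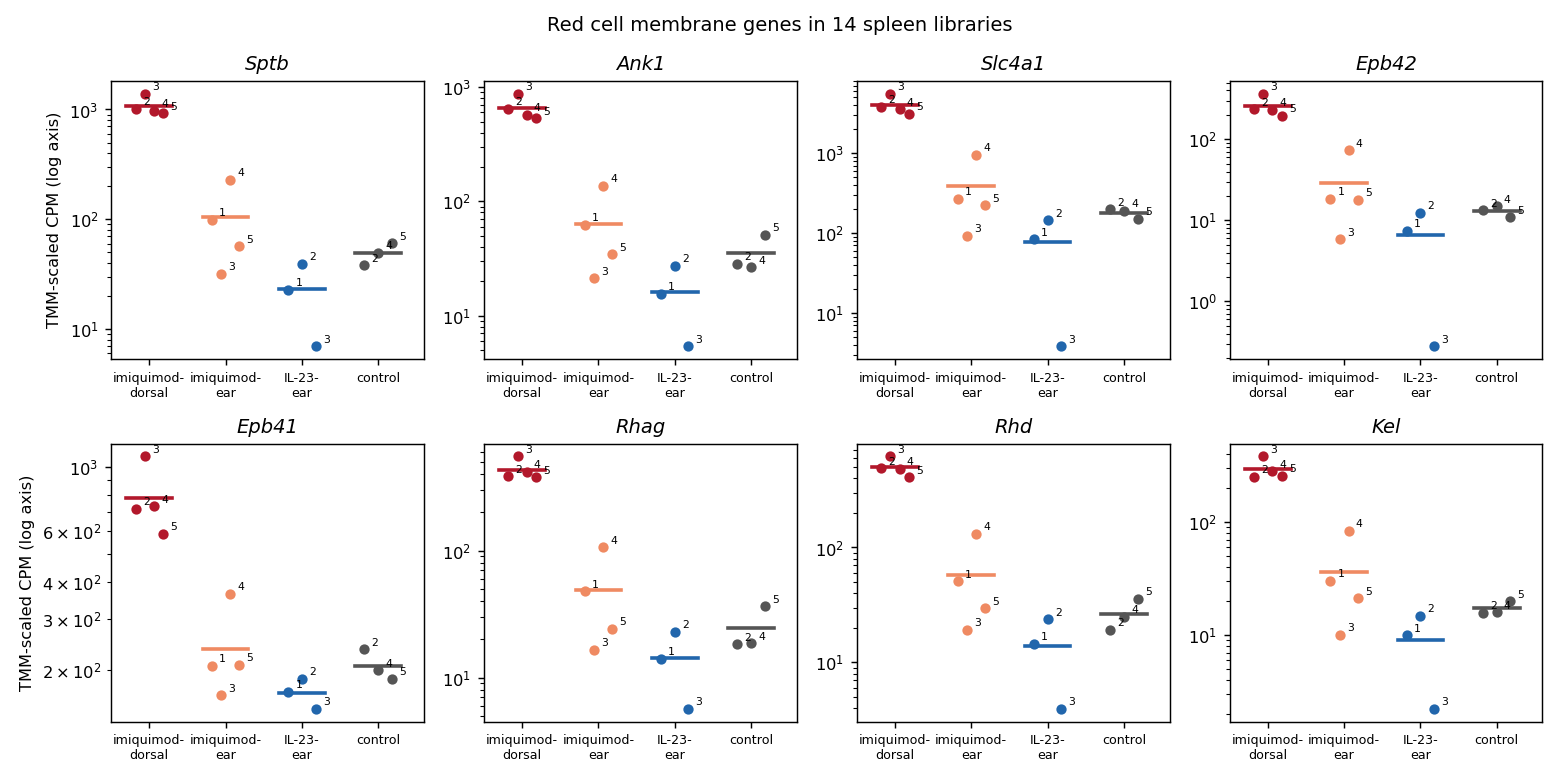
TMM-scaled CPM of each member (log axis, 1 panel a gene) in the imiquimod-dorsal, imiquimod-ear, IL-23-ear and control libraries; points are libraries with their replicate number and bars are group means. The 4 imiquimod-dorsal points lie above every other point in all 8 panels, imiquimod-ear 4 is the highest of its group and IL-23-ear 3 the lowest of all.

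Reads were counted without strand, so reads of genes on the opposite strand cannot be told apart from those of a member they overlap. Plekhg3 overlaps Sptb and was at -0.13 (adjusted p = 0.44). Tmem50a overlaps Rhd and was at -0.18 (adjusted p = 0.0388). Llcfc1 overlaps Kel and was at 0 CPM in every library, so it was not tested.

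Other genes of the pathway moved with the members. Of 26 further red cell membrane genes 24 rose, 1 fell and 1 did not pass, with a median log2 fold change of 2.62 against 0 over all genes. The largest rises were of Icam4 (4.63 ± 0.72), the adhesion protein of the LW blood group, Dmtn (4.61 ± 0.70), the actin-bundling protein dematin, and Ackr1 (4.44 ± 0.66), the Duffy chemokine receptor, with adjusted p of 0.000114 to 0.000179. Bcam, the Lutheran glycoprotein, fell by 1.03 ± 0.16 (adjusted p = 0.000115), Sema7a was at -0.15 ± 0.16 (adjusted p = 0.419) and Cd47 rose by 0.55 ± 0.09 (adjusted p = 0.00016). Xk, the partner of Kel, rose by 2.82 ± 0.31 (adjusted p = 1.02e-05). The ratio of Kel to Xk CPM within a library was 3.62 to 3.92 in imiquimod-dorsal libraries and 1.52 to 1.63 in controls, without overlap.

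Relatives of the members that serve other cells did not rise. Of 18 such genes 15 had enough counts to test; 6 fell, 9 did not pass and none rose, with a median of -0.23. Sptbn1, the beta-spectrin of non-erythroid cells, fell by 0.81 ± 0.08 (adjusted p = 2.81e-06), Ank2 by 0.73 ± 0.18 (adjusted p = 0.00319), Epb41l2 by 0.48 ± 0.07 (adjusted p = 5.2e-05) and Ece1, an endothelin-converting protease related to Kel, by 0.53 ± 0.14 (adjusted p = 0.00461). Slc4a2, an anion exchanger of many tissues, was at -0.04 ± 0.07 (adjusted p = 0.609) and Tgm2, a transglutaminase, at 0.17 ± 0.12 (adjusted p = 0.23). With library totals in place of TMM the median of all genes shifted to -0.33 and calls were 2749 higher and 7242 lower, against 4890 and 4181 with TMM, and all 8 members were still called higher. Within a library, Sptb counts per Sptbn1 count (as CPM ratio, which holds under any library scaling) were 5.01 to 7.48 in imiquimod-dorsal libraries and 0.115 to 0.199 in controls.

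**Figure D2:**
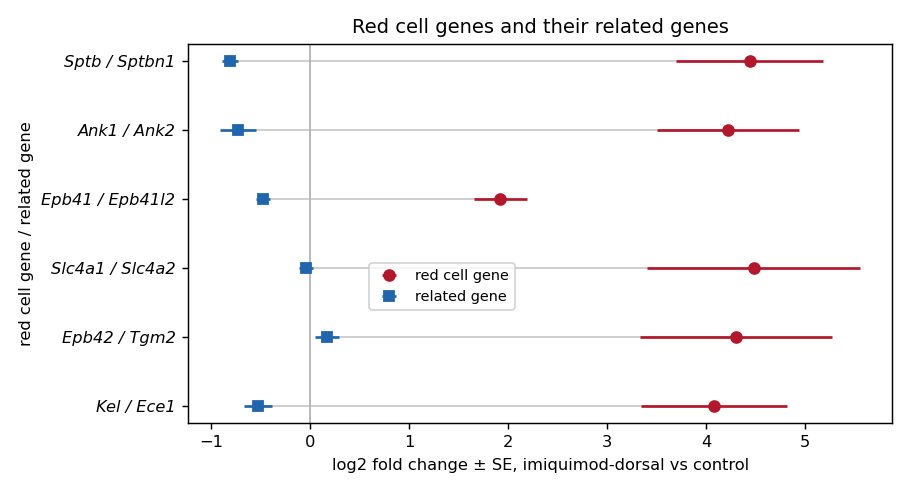
Log2 fold change with its SE (horizontal axis), imiquimod-dorsal against control, of 6 members (circles) and the most abundant relative of each (squares). Members lie between 1.92 for Epb41 and 4.48 for Slc4a1, and the relatives between -0.81 for Sptbn1 and 0.17 for Tgm2.

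Erythroid transcription factors and markers of erythroblasts shifted the same way. Klf1 rose by 4.19 ± 0.78 (adjusted p = 0.000671), Tal1 by 3.95 ± 0.63 (adjusted p = 0.000232), Nfe2 by 3.82 ± 0.53 (adjusted p = 7.64e-05), Gata1 by 3.57 ± 0.50 (adjusted p = 7.98e-05), the Gata1 cofactor Zfpm1 by 2.75 ± 0.25 (adjusted p = 2.5e-06) and Lmo2 by 1.5 ± 0.18 (adjusted p = 1.07e-05). Ldb1, a widely made cofactor of the same complex, was at 0.06 ± 0.09 (adjusted p = 0.598). All 10 erythroblast markers rose, and their summed level was 8862 to 13100 CPM in imiquimod-dorsal libraries and 824 to 998 CPM in controls. All 4 adult globin genes rose too, and their median rise was 2.17 on the log2 scale.

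Markers of other spleen cells moved in the same libraries. All 5 T cell markers fell, with a summed level of 97.1 to 125 CPM in imiquimod-dorsal libraries and 443 to 661 CPM in controls. All 5 neutrophil markers rose, at 705 to 1241 CPM against 48.5 to 78.4 CPM. Of 5 B cell markers 1 fell (2344 to 2784 CPM in imiquimod-dorsal libraries, 2769 to 2926 CPM in controls), of 9 red pulp macrophage markers 1 rose and 1 fell (1189 to 1635 and 1603 to 1919 CPM), and of 9 megakaryocyte and platelet markers 1 rose (175 to 305 and 117.5 to 261 CPM). No marker of these lists was at 0 in any library. The part of such shifts in the members' rise was not tested.

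Within the group of members, ratios between genes differed little among imiquimod-dorsal libraries. Slc4a1 over Ank1, as CPM, was 5.87 to 6.35 there, and 7.03, 7.12 and 2.95 in controls 2, 4 and 5, so the groups overlap. Per globin count 7 of the 8 members had every imiquimod-dorsal library above every control, and Epb41 overlapped. The share of all genes for which this held was not computed on that scale, so the count is not set apart from other genes. Slc4a1 had 37.0 to 44.6 counts per 1000 adult globin counts in imiquimod-dorsal libraries, against 5.25, 10.7 and 13.3 in controls 2, 4 and 5. Ank1 per 1000 globin counts was 6.00 to 7.19 in imiquimod-dorsal libraries against 0.747 to 4.52 in controls. Epb41 per 1000 globin counts was 7.17 to 8.71 in imiquimod-dorsal libraries, against 6.20, 11.3 and 16.6 in controls 2, 4 and 5. Globin took 6.69% to 10.4% of the counts in imiquimod-dorsal libraries and 1.24% to 4.16% in controls. Control 2 had the most globin of the controls and the fewest Slc4a1 counts per globin count.

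**Figure D3:**
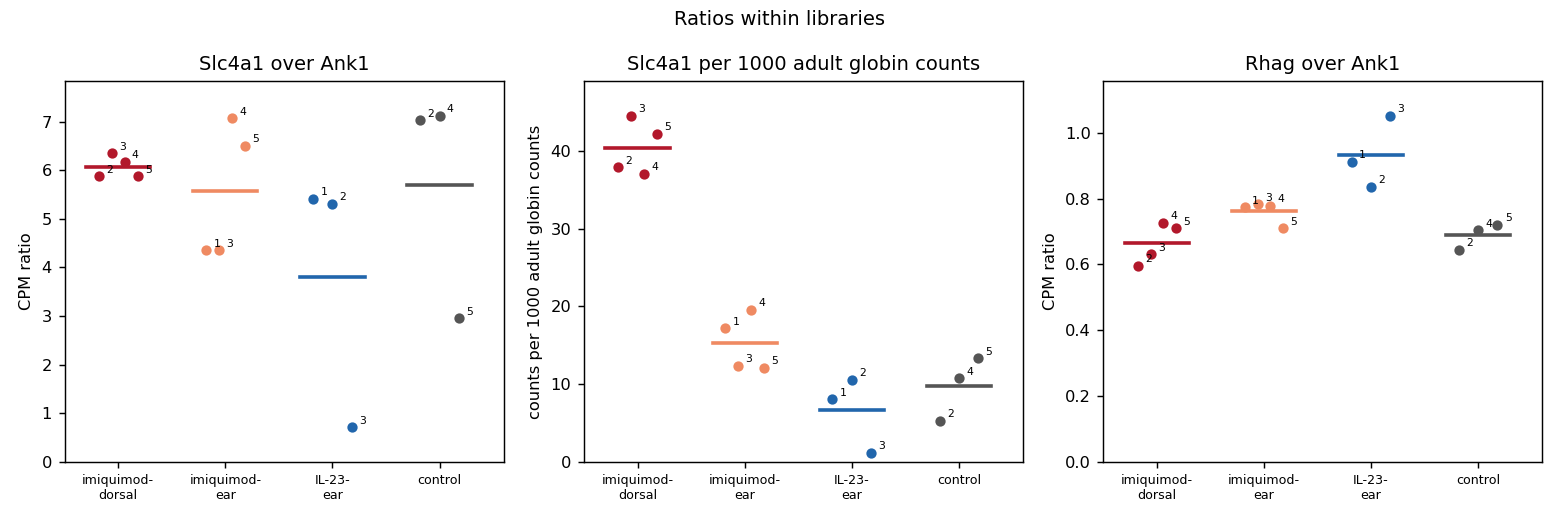
Ratios within each library (points with replicate numbers; bars are group means): Slc4a1 over Ank1 as CPM, Slc4a1 counts per 1000 adult globin counts, and Rhag over Ank1 as CPM, in the 4 groups. Imiquimod-dorsal libraries stand highest in the middle panel at 37.0 to 44.6, and IL-23-ear 3 is lowest in the left panel at 0.71 and highest in the right panel at 1.05.

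The next comparison set imiquimod on the ear, a small treated site, against vehicle. No member passed, at 0.19 ± 0.25 for Epb41 to 1.14 ± 0.86 for Epb42 on the log2 scale, with adjusted p of 0.241 for Rhd to 0.63 for Epb41. None was under an unadjusted p of 0.05, against 5331 of the 15159 genes tested. DESeq2 and limma-voom also called 0 members, while edgeR called 21.2% of all genes in this comparison (14.3% higher). The median was 1.08 over the members and 0.02 over all genes. For 8 of 8 members the imiquimod-ear libraries overlapped the controls. Of all genes 13.5% had every imiquimod-ear library above every control and 11.0% every one below, so most genes overlapped too.

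The imiquimod-ear mice differed widely among themselves. Slc4a1 was at 269.8, 92.1, 962 and 223 CPM in imiquimod-ear 1, 3, 4 and 5, against 149.6 to 198.9 CPM in controls. Sptb was at 98.8, 32.0, 229.9 and 56.7 CPM against 38.0 to 60.4 CPM, and Ank1 at 62.0, 21.2, 136 and 34.3 CPM against 26.5 to 50.7 CPM. In each case libraries 1 and 4 lay above every control and library 3 below every control. Epb42 was at 18.4, 5.83, 72.8 and 17.9 CPM in imiquimod-ear 1, 3, 4 and 5, and Epb41 at 206, 163, 366 and 208 CPM. Rhag was at 48.0, 16.6, 106 and 24.3 CPM, Rhd at 50.9, 19.2, 132 and 29.5 CPM, and Kel at 30.1, 10.1, 83.4 and 21.2 CPM. Imiquimod-ear 4 was the highest of its group and imiquimod-ear 3 the lowest for 8 of 8 members.

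Imiquimod-ear 4 held 1.90 times (Epb41) to 5.19 times (Epb42) the mean of the other 3 imiquimod-ear libraries. Without it, the log2 fold changes against control were 0.34 for Sptb, 0.32 for Rhd, 0.28 for Rhag, 0.25 for Kel, 0.15 for Ank1, 0.12 for Slc4a1, 0.11 for Epb42 and -0.10 for Epb41. Markers moved with it: the erythroblast sum was 2957 CPM in imiquimod-ear 4 and 573 to 1289 CPM in the other 3, and globin took 4.89% of its counts against 0.751% to 2.01%. Its B cell sum of 2638 CPM lay among the 2542 to 2771 CPM of the others, as did its T cell sum (398 among 296 to 573 CPM) and red pulp macrophage sum (1383 among 1129 to 1729 CPM). Its neutrophil sum (424 against 112 to 398 CPM) and its megakaryocyte and platelet sum (444 against 209 to 426 CPM) were the highest of the group. Against control, 4 of 5 neutrophil markers were higher in the imiquimod-ear group (112 to 424 against 48.5 to 78.4 CPM). Lower were 2 of 9 red pulp macrophage, 1 of 5 T cell and 1 of 5 B cell markers. None of 9 megakaryocyte and platelet markers passed. The part of these levels in the members' values was not tested there. Of the 26 further membrane genes 2 rose in this comparison, Kcnn4 (0.67 ± 0.15, adjusted p = 0.00758), a calcium-activated potassium channel, and Bsg (0.61 ± 0.15, adjusted p = 0.0121), which carries the Ok blood group. None of the 7 transcription genes or 10 erythroblast markers passed in edgeR's test. Of the transcription genes only Ldb1 had an unadjusted p under 0.05, and it was lower (-0.23 ± 0.09, adjusted p = 0.0849). Of the erythroblast markers 1 had an unadjusted p under 0.05.

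**Figure D4:**
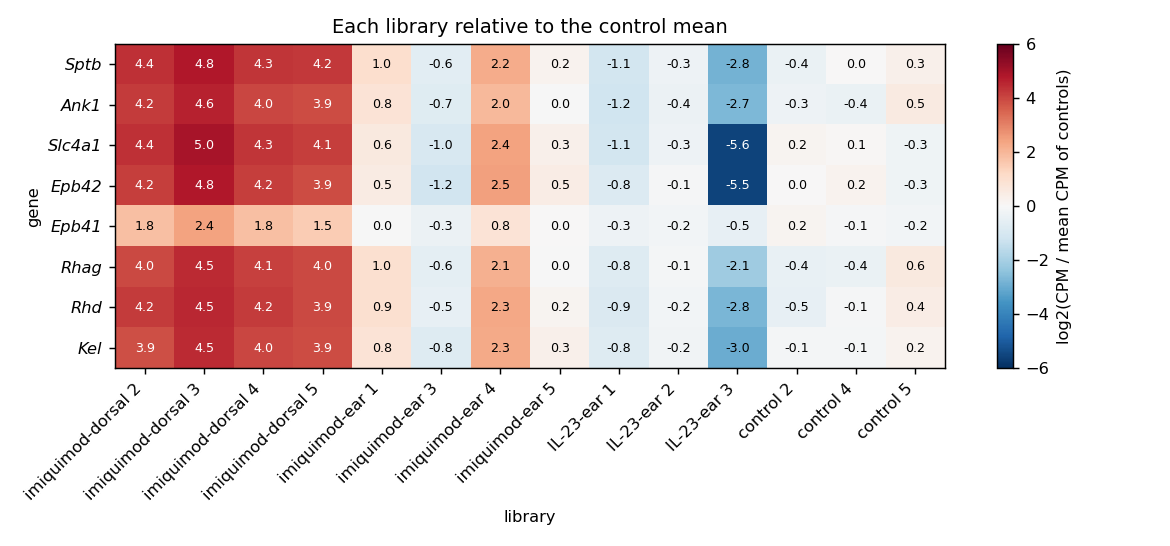
Log2 of each library's CPM over the mean CPM of the controls (colour and printed value; rows are members, columns the 14 libraries by group). Imiquimod-dorsal columns are positive for every member, the imiquimod-ear columns hold both signs, and the IL-23-ear 3 column is lowest at Slc4a1 and Epb42.

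Imiquimod on the ear was also set against imiquimod on the back. The site, the treated area and the amount of drug taken up may all differ between these groups, and cannot be told apart. All 8 members were lower in imiquimod-ear spleens, and no imiquimod-ear library reached the lowest imiquimod-dorsal one. Ank1 (-3.37 ± 0.61, adjusted p = 0.000884), Slc4a1 (-3.37 ± 0.90, adjusted p = 0.00939) and Sptb (-3.36 ± 0.62, adjusted p = 0.00105) differed most, followed by Epb42 (-3.16 ± 0.81, adjusted p = 0.00755). The Rh genes followed at -3.15 ± 0.59 for Rhag (adjusted p = 0.00106) and -3.11 ± 0.63 for Rhd (adjusted p = 0.00179), then Kel at -3.02 ± 0.62 (adjusted p = 0.00214). Epb41 differed least, at -1.73 ± 0.24 (adjusted p = 0.000112). Of all genes 24.5% were called lower here and 47.7% in either direction, and 23.1% had every imiquimod-ear library below every imiquimod-dorsal one. Without imiquimod-ear 4 the differences were larger, -4.36 to -2.02, and all 8 remained called.

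The genes around the members differed between the sites as well. Of the 26 further membrane genes 24 were lower, among them Dmtn (-3.44 ± 0.58, adjusted p = 0.000583), Icam4 (-3.28 ± 0.58, adjusted p = 0.00081) and the mechanosensitive channel Piezo1 (-0.78 ± 0.11, adjusted p = 5.49e-05). Bcam was higher (0.97 ± 0.15, adjusted p = 0.00021) and Sema7a did not pass (0.28 ± 0.15, adjusted p = 0.13). All 7 transcription genes were lower, at -3.27 ± 0.66 for Klf1 to -0.29 ± 0.08 for Ldb1, and so were all 10 erythroblast markers. Of the 15 relatives tested 7 were higher, Sptbn1 (0.53 ± 0.08, adjusted p = 8.65e-05) and Epb41l2 (0.26 ± 0.06, adjusted p = 0.00455) among them, and 1 was lower, Tgm2 (-0.61 ± 0.11, adjusted p = 0.000583). All 5 T cell markers were higher in imiquimod-ear libraries, with a summed level of 296 to 573 CPM against 97.1 to 125 CPM, and 3 of 5 neutrophil markers were lower, at 112 to 424 CPM against 705 to 1241 CPM. Their part in the members' difference was not tested.

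IL-23 in the ear was compared with vehicle in the same way. No member passed, at -1.21 ± 0.97 for Slc4a1 to -0.31 ± 0.27 for Epb41, with adjusted p of 0.705 to 0.835. None was under an unadjusted p of 0.05, against 1305 of the 15159 genes tested. DESeq2 and limma-voom called 0 members, and edgeR called 0.0528% of all genes here. The size of the difference depended on the tool: limma-voom gave -2.30 for Slc4a1 and -2.09 for Epb42, against -1.21 and -0.97 with edgeR. The median was -0.95 over the members and 0.01 over all genes. Slc4a1, Epb41 and Kel had every IL-23-ear library below every control, which held for 6.98% of all genes, and the other 5 members overlapped. With these values the order of the group means was imiquimod-dorsal, imiquimod-ear, control, IL-23-ear for 8 of 8 members, in which imiquimod-ear and control, and control and IL-23-ear, did not pass the test.

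The IL-23-ear mice also spread widely, and 1 library stood apart. Slc4a1 was at 83.7, 145 and 3.81 CPM in IL-23-ear 1, 2 and 3, and Epb42 at 7.385, 12.3 and 0.278 CPM. In IL-23-ear 3 these rest on 137 counts of Slc4a1 and 10 counts of Epb42. Other members fell short less: Rhag was at 14.1, 22.8 and 5.65 CPM, Ank1 at 15.5, 27.3 and 5.37 CPM, and Sptb at 22.8, 39.5 and 6.96 CPM. Rhd was at 14.4, 23.7 and 3.92 CPM, Kel at 9.99, 14.9 and 2.23 CPM, and Epb41 at 168, 186 and 146 CPM. The mean of the other 2 libraries exceeded IL-23-ear 3 by 35.4-fold for Epb42 and 30.0-fold for Slc4a1, against 3.27-fold for Rhag, 3.98-fold for Ank1, 4.47-fold for Sptb and 1.21-fold for Epb41.

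The balance among the members in IL-23-ear 3 differed from that in every other library. Slc4a1 over Ank1 was 0.71 there, against 2.95 to 7.12 in the other 13 libraries, and Slc4a1 made up 2.18% of the members' counts, against 24.9% to 51.3%. Slc4a1 over Epb42 was 13.7, within the 11.3 to 16.2 of the others. Rhag over Ank1 was 0.912, 0.835 and 1.05 in IL-23-ear 1, 2 and 3, above the 0.596 to 0.783 of the other 11 libraries. The erythroblast sum was 321 CPM in IL-23-ear 3, against 558 and 797 CPM in IL-23-ear 1 and 2, and globin took 0.343% of its counts, against 1.12% and 1.42%. Its B cell, T cell and red pulp macrophage sums, 2867, 746 and 1721 CPM, lay within the range of IL-23-ear 1 and 2, and its neutrophil sum was 54.9 CPM against 59.0 and 212 CPM. The part of these levels in the members' values was not tested. Without IL-23-ear 3 the members were at -0.73 to -0.24 against control. Slc4a1 was at -0.66 in that setting and at -2.05 without IL-23-ear 2.

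IL-23 in the ear was last set against imiquimod on the ear. The agent, the route and the days of treatment all differ between these groups, and cannot be told apart. Sptb passed as lower, at -2.18 ± 0.67 (adjusted p = 0.0453), and the other 7 members did not, at -2.32 ± 0.97 for Slc4a1 to -0.50 ± 0.26 for Epb41. Of the 8, 7 had an unadjusted p under 0.05, as had 5018 of the 15159 genes tested. DESeq2 called 6 members lower, and over all genes it called 1588 higher and 1942 lower. All 8 members overlapped between the groups. Of all genes 13.0% had every IL-23-ear library above every imiquimod-ear one and 12.5% every one below, so most genes overlapped too. Over all genes 10.2% were called lower and 17.3% in either direction, and the median was -0.02 against -2.02 over the members. The call of Sptb was lost in 15 of 23 alternatives, among them without imiquimod-ear 4 (-1.44, adjusted p = 0.0748) and without IL-23-ear 3 (-1.72, adjusted p = 0.136), over an adjusted p range of 0.00596 to 0.169. With both of those libraries left out, a setting chosen after seeing the data, the members were at -1.01 to -0.12. Among the further membrane genes 5 were lower, Ackr1 (-2.0), Xk (-1.04), Abcb6 (-0.92), Kcnn4 (-0.53) and Bsg (-0.48), and Cd47 was higher (0.36), with adjusted p of 0.0167 to 0.0498. Bcam (0.12 ± 0.16, adjusted p = 0.659) and Sema7a (-0.10 ± 0.16, adjusted p = 0.688) did not pass. Of the transcription genes Ldb1 was higher (0.29 ± 0.09, adjusted p = 0.0411) and the other 6 did not pass, and of the relatives named above Sptbn1 was higher (0.35 ± 0.08, adjusted p = 0.0106). All 5 T cell markers were higher in IL-23-ear libraries, with a summed level of 676 to 750.4 CPM against 296 to 573 CPM in imiquimod-ear libraries. Of 5 neutrophil markers 2 were lower, the granule genes Mpo (-2.70 ± 0.56, adjusted p = 0.00929) and Elane (-2.66 ± 0.55, adjusted p = 0.00883), and the sum was 54.9 to 212 CPM against 112 to 424 CPM. Of 10 erythroblast markers the transferrin receptor Tfrc was lower (-1.19 ± 0.37, adjusted p = 0.0447) and 9 did not pass, with a sum of 321 to 797 CPM against 573 to 2957 CPM. Of 9 red pulp macrophage markers 1 was higher (1645 to 1803 against 1129 to 1729 CPM) and of 5 B cell markers 1 was higher (2861 to 3103 against 2542 to 2771 CPM). None of 9 megakaryocyte and platelet markers passed, 5 of them at an unadjusted p under 0.05 (134 to 305 against 209 to 444 CPM). Their part in the members' difference was not tested.

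**Figure D5:**
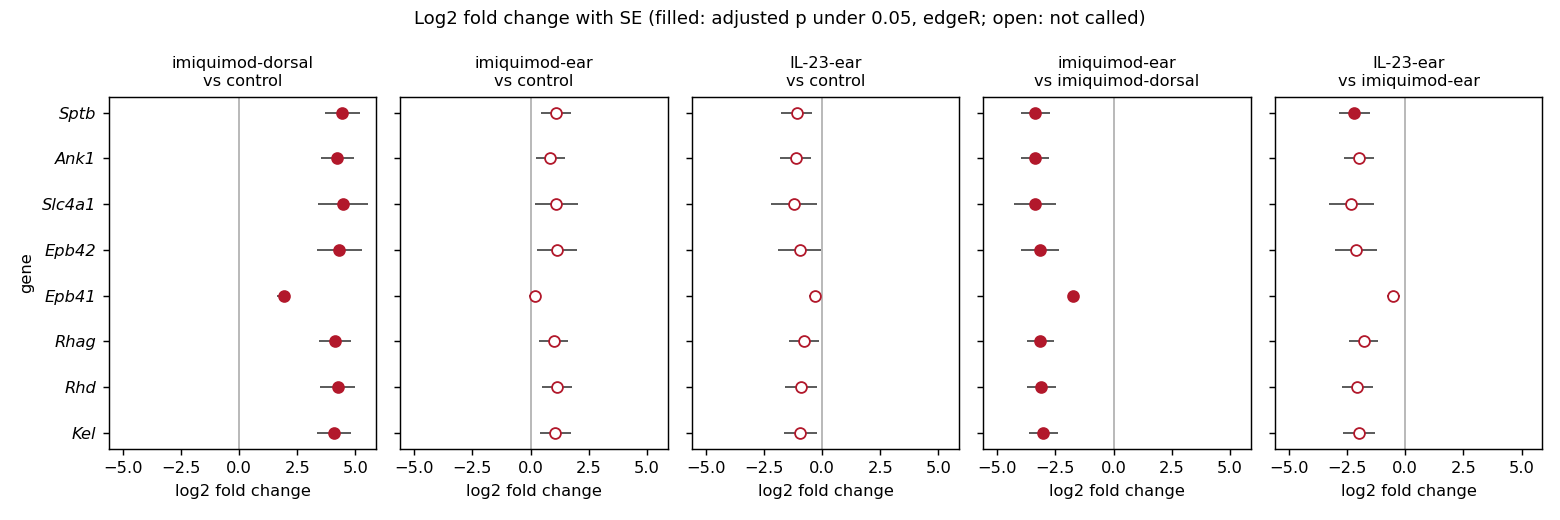
Log2 fold change with its SE of the 8 members in the 5 comparisons, 1 panel each; filled points passed the test. All 8 are filled to the right in imiquimod-dorsal against control and to the left in imiquimod-ear against imiquimod-dorsal, only Sptb is filled in IL-23-ear against imiquimod-ear, and none in the other 2 panels.

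Which genes run most like the members was measured as the root mean square difference between a gene's centred log2 CPM and the members' average over the 14 libraries, among 12398 other genes whose mean log2 CPM was 1 or more. Among the closest were Ahsp (0.255), the chaperone of alpha-globin, Tmod1 (0.266), which caps the short actin filaments of the mesh, Dmtn (0.281), Icam4 (0.301), Slc2a4 and Add2 (0.313 each), Tspo2 (0.319), Acmsd (0.326) and Car2 (0.336). The median over the genes ranked was 2.15. Add2, or beta-adducin, is a further component of the spectrin and actin junction, and Car2 is a carbonic anhydrase of red cells. Ahsp had 1152 ± 202 CPM in imiquimod-dorsal libraries (SD, n = 4) and 56.8 ± 7.87 CPM in controls (SD, n = 3). Of the members, which enter that average, Kel lay nearest to it at 0.0808, while Epb42 (0.658), Slc4a1 (0.738) and Epb41 (1.29) lay farthest.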

How the data were processed

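Spleen RNA of 14 mice was sequenced after poly(A) selection with a kit that marks no strand, per the labels' protocols. The authors deposited 1 table of raw read counts per gene and library; per the submitters' processing notes the build was GRCm39 and the tools included HISAT2 2.2.1, featureCounts 2.0.3 (Subread), StringTie 2.2.1, fastp 0.23.2 and DESeq2 1.38.3, with no roles stated. The counting of multiply matching reads is not stated there. From the 22740 entries of the table, 624 assembled loci without a name (0.484% to 0.674% of counts) were left out.

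The 22116 named genes were fitted with edgeR 4.0.16 (R 4.3.3), TMM scaling and robust quasi-likelihood F tests, after filterByExpr with a minimum count of 10 left 15159. All 14 libraries entered 1 fit (10 residual degrees of freedom, common biological coefficient of variation 18.7%), and p-values were adjusted over all tested genes after Benjamini and Hochberg. The fit was tested on simulated data. Exon lengths and coordinates came from GENCODE mouse release M39 on GRCm39; CPM per kb uses the union of exons. Alternatives were DESeq2 1.42.0, limma-voom (limma 3.58.1), RLE factors, library totals, no adult globins, no filter, only the 2 groups, the replicate number as a block and leaving out each library.

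Chi-square tests of counts between replicates gave 24.1 to 141.4 per degree of freedom over 18 pairs, above sampling noise, and each library counts as 1 mouse. Members, lists and tests were chosen with earlier results of these data known. Named beside the members were, in comparisons with called members, the 3 largest and 3 smallest log2 fold changes of the further membrane genes, the most abundant relative of each member, the transcription genes and the 10 genes most like the members; a few of these genes are not reported here. Other genes named (partners of members, and further membrane genes that passed where 6 or fewer did) were chosen after their values were seen.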

Additional observations from a re-analysis of the deposited data

Results flagged for a closer look

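Of 60 sets of values looked at in groups of 4 libraries, 1 held a library far from the other 3, where chance gives about 1 in 20. Rhag over Ank1, as a ratio of CPM within a library, was 0.7092 in imiquimod-ear 5, while imiquimod-ear 1, 3 and 4 lay close together at 0.773, 0.783 and 0.779. The gap was 0.869 of the whole range of the group, above Dixon's critical value for groups of 4. The value lies within the 0.596 to 0.727 of the imiquimod-dorsal libraries and the 0.644 to 0.720 of the controls.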

How the results depend on the processing

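Over 23 alternatives the count of called members stayed at 8 in imiquimod-dorsal against control and in imiquimod-ear against imiquimod-dorsal, and at 0 in imiquimod-ear and in IL-23-ear against control; of 920 values of single members 891 kept direction and side of the threshold. Epb41 in imiquimod-ear against control (0.19) ranged from -0.10 to 0.30 leaving out 1 library, and was reversed, at -0.10, without imiquimod-ear 4 and with imiquimod-ear 4 and IL-23-ear 3 both left out. Slc4a1 in imiquimod-dorsal against control was at 5.09 with the replicate block, against 4.48. Members called in IL-23-ear against imiquimod-ear (1) were 6 by DESeq2, 0 with no filter, with only the 2 groups, with the replicate block and with both libraries left out, and 0 to 4 leaving out 1 library at a time. Genes called in imiquimod-ear against control (3219) were 1126 with only the 2 groups, 311 with the replicate block, 2000 with both left out and 1066 to 4977 leaving out 1 library. In IL-23-ear against imiquimod-ear (2623) they were 1247, 1261, 659 and 1101 to 4463. In IL-23-ear against control (8) they were 132 by DESeq2, 15 by limma-voom, 0 under each of the other 7 settings (RLE factors, library totals, no globins, no filter, 2 groups, replicate block, both left out) and 0 to 12 leaving out 1 library. With library totals, imiquimod-ear against imiquimod-dorsal had a median over all genes of 0.26, with 6513 called higher and 2164 lower, against 3528 and 3709 with TMM. Imiquimod-ear against control then had 1439 higher and 1775 lower, against 2161 and 1058. The cause of these shifts was not tested. Replicate numbers showed no pairing of the libraries. Deviations of 13 same-number pairs correlated at -0.24 to 0.18, 1 over 0.1, and those of 60 different-number pairs at -0.23 to 0.22, 6 over 0.1. Where a lone gene rests on few counts, as Epb42 with 10 in IL-23-ear 3, depth limits its ratio.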
